A study of Ginkgo biloba with 2 samples.

Results

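The miR162, miR168 and miR403 families were followed in the gymnosperm tree Ginkgo biloba, in 1 small RNA library of yellow mutant leaves and 1 of normal green leaves. All names of these families, matched by the exact number after "miR", were taken, which gave 8 of the 467 names in the deposited count table. 5 of them are miR162 names, 2 are miR168 names and 1 is a miR403 name. As context, the predicted target genes whose protein match is an Argonaute or a Dicer were added, with the miRNA names listed for them.

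The yellow library is labelled as mutant leaves, which the labels' protocols describe as striped in yellow and green, so it may hold green tissue. The green library is labelled as normal leaves. Both kinds were collected from an adult tree outdoors, between May and July of 2 years, and no further treatment is given. The protocols speak of cambium RNA while the tissue label is leaf. None of the miRNA names used here marks leaf tissue alone, so the tissue label was not checked against markers. The sources used here do not say whether material was pooled across branches or years. The yellow library totalled 2793966 reads over all names and the green library 2084893. Each leaf type had a single library, so the differences below have no replicate check, none was tested, and the 95% exact intervals hold counting error alone.

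Plant miRNAs are cut from hairpin precursors by Dicer-like 1 (DCL1) and act when loaded into an Argonaute protein, above all Argonaute 1 (AGO1). In flowering plants this machinery is itself under miRNA control. miR162 targets the DCL1 transcript and miR168 targets the AGO1 transcript, each forming a feedback loop with the protein that makes or carries it, and miR403 targets Argonaute 2 in Arabidopsis. The prefix of each name gives the species in which the sequence was described: ath is Arabidopsis thaliana, zma is maize, bdi is Brachypodium distachyon, osa is rice, cln is the conifer Cunninghamia lanceolata and gma is soybean. The mature sequences were not used here.

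All 8 names had reads in both libraries, and the miR162 names with the most reads stood far above the rest. Levels are given as CPM, the read count scaled to the column total, and each read stands for 1 small RNA, so no length enters. The miR162 family was the most abundant of the 3, with 5955 reads in yellow and 5089 in green leaves summed over its 5 names. Among the 61 numbered miRNA families of the table, summed in this way, miR162 ranked 5 in yellow and 6 in green leaves. miR168 ranked 16 in yellow and 19 in green leaves, and miR403 ranked 50 in yellow and 54 in green leaves. These sums can count a read under several names, so they can exceed the number of distinct reads. The column totals are summed over all names and can do the same. Every CPM, percent and ratio scaled by them carries this limit. For example, cpa-miR166e and zma-miR166h-3p each had 79529 reads in yellow leaves, with 88263 and 88264 in green leaves.

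Within miR162, 2 names carried most of the summed reads. ath-miR162a-3p had 2652 reads in yellow leaves and 2191 in green leaves, or 949 CPM (913 to 986) in yellow and 1051 CPM (1007 to 1096) in green. zma-miR162-3p had 2646 reads in yellow leaves and 2190 in green leaves. The names differed from each other by 6 reads in yellow and 1 read in green leaves, less than the counting error of either name alone. That error does not measure the difference if both names count the same reads. Both are kept in the sums and counts below unless stated, although they can count the same reads. The "3p" in the names is the hairpin arm that carries the DCL1-targeting strand in Arabidopsis.

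bdi-miR162 came next, with 645 reads in yellow leaves and 698 in green leaves, or 231 CPM (213 to 249) in yellow and 335 CPM (310 to 361) in green. Its interval lay below those of the ath and zma names in both libraries. The remaining miR162 names were close to the detection limit. cln-miR162, from the only conifer among the prefixes of the miR162, miR168 and miR403 names, had 6 reads in yellow leaves and 7 in green leaves. osa-miR162b had 6 reads in yellow leaves and 3 in green leaves. The intervals of these rare names overlapped each other and that of miR403 in each library, so the order among them was not resolved.

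Both miR168 names, ath-miR168a-5p and gma-miR168b, had 157 reads in yellow leaves and 220 in green leaves. Their counts were equal in both libraries and are given once below, as 56.2 CPM (47.75 to 65.7) in yellow and 105.5 CPM (92.0 to 120.4) in green leaves. In the order of levels they followed bdi-miR162 and preceded the rare miR162 names, without overlap of the intervals in either library. ath-miR403-3p had 1 read in yellow leaves and 1 in green leaves, which gave intervals of 0.00906 to 1.99 CPM in yellow and 0.0121 to 2.67 CPM in green. A difference in miR403 was not detectable at this depth.

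**Figure D1:**
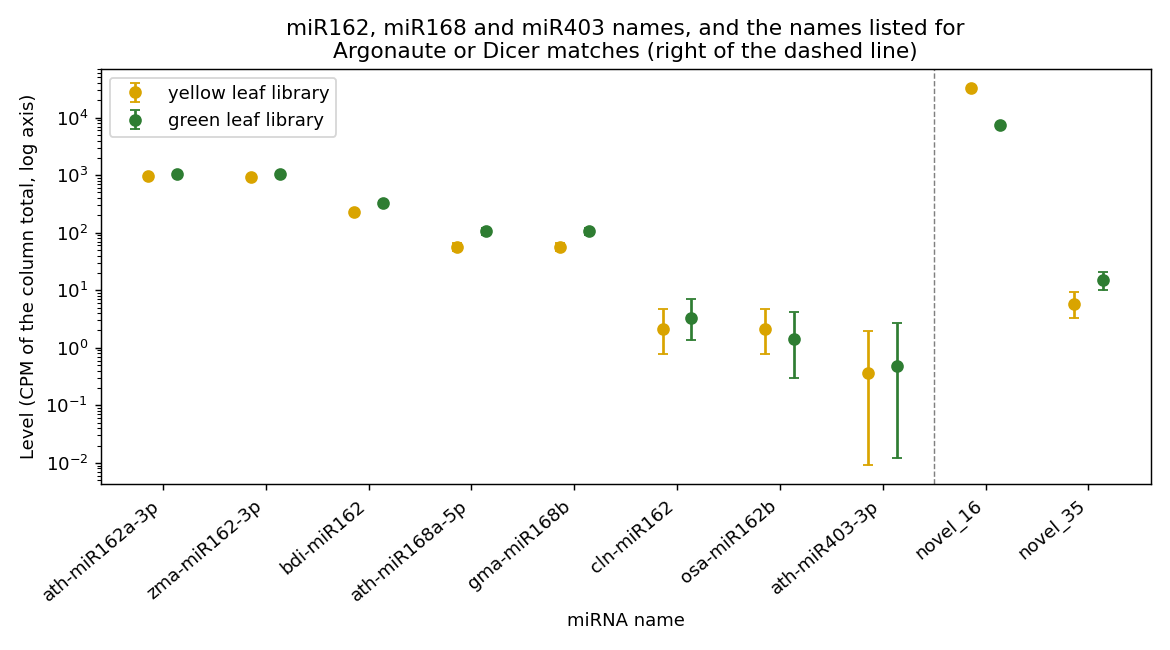
Level of each miR162, miR168 and miR403 name and of the names listed for Argonaute or Dicer matches, as CPM of the column total on a log axis, in the yellow and the green leaf library (1 library each). Points are values and bars are 95% exact Poisson intervals of counting error. ath-miR162a-3p and zma-miR162-3p sit highest among the miR162, miR168 and miR403 names, ath-miR403-3p rests on 1 read in each library, and novel_16 lies at 33200 CPM in yellow and 7376 CPM in green leaves.

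The comparison of yellow with green leaves asked whether these families, known in flowering plants as regulators of the small RNA machinery, differed between the leaf types. Scaled by the column total, all 5 names with at least 20 reads over both libraries stood lower in yellow leaves, but none by as much as 2-fold. ath-miR162a-3p had a ratio of yellow over green of 0.903 (0.853 to 0.956), and zma-miR162-3p one of 0.902 (0.852 to 0.9545). bdi-miR162 had a ratio of 0.690 (0.619 to 0.769). The miR168 names had the lowest ratio among the 5, at 0.5325 (0.431 to 0.6565), which is 1.88-fold lower in yellow leaves (1.52 to 2.32). In bulk tissue, fewer cells that hold a miRNA and less of it per cell cannot be told apart.

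Calls were made by size alone. A called name had at least 20 reads in all, differed at least 2-fold between the libraries, and had an interval that left out 1. On these terms 0 of the 5 names were higher and 0 were lower. Of the 306 names in the table with at least 20 reads, 12.1% were higher and 24.8% were lower. The other 3 names, cln-miR162, osa-miR162b and ath-miR403-3p, were below the read minimum. With a 1.5-fold limit the miR168 names, 2 of the 5, were lower, beside 34.3% of the 306 names. The 5 names hold fewer than 5 independent measurements, since the miR168 counts are equal and those of ath-miR162a-3p and zma-miR162-3p nearly so.

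The side of 1 on which miR162 fell depended on how the libraries were scaled. Over all 306 names the median log2 ratio was -0.43 when scaled by the column total, and -0.54 over the 5 names, or -0.34 with the equal miR168 counts taken once and again -0.54 with ath-miR162a-3p and zma-miR162-3p also taken once. Of the 306 names, 200 had a ratio below 1, or 65.4%. With TMM scaling, which sets the bulk of the names to no change, ath-miR162a-3p had a ratio of 1.25 (1.18 to 1.32), and with median-of-ratios scaling one of 1.21 (1.14 to 1.28). The most-read name of the table, novel_1, had 1016266 of the 2793966 reads in yellow leaves and 490722 of the 2084893 in green leaves. With the column total taken without it, every ratio rose by a factor of 1.20, and that of ath-miR162a-3p was 1.085 (1.025 to 1.15). zma-miR162-3p did the same, with 1.25 by TMM, 1.21 by median of ratios and 1.08 without the most-read name. bdi-miR162 stayed below 1 under each of the 5 scalings tried, but its interval included 1 with TMM, at 0.953 (0.855 to 1.06), and with median of ratios, at 0.924 (0.829 to 1.03). The miR168 names stayed below 1 with intervals that left out 1 under each of the 5 scalings, between 0.5325 by the column total and 0.736 (0.596 to 0.908) by TMM.

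The ratios lay within the middle range of the whole table. Of the 306 names with at least 20 reads, 29.4% had a lower ratio than the miR168 names, 45.1% a lower one than bdi-miR162 and 59.8% a lower one than ath-miR162a-3p. These positions do not change with a common scaling factor.

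**Figure D2:**
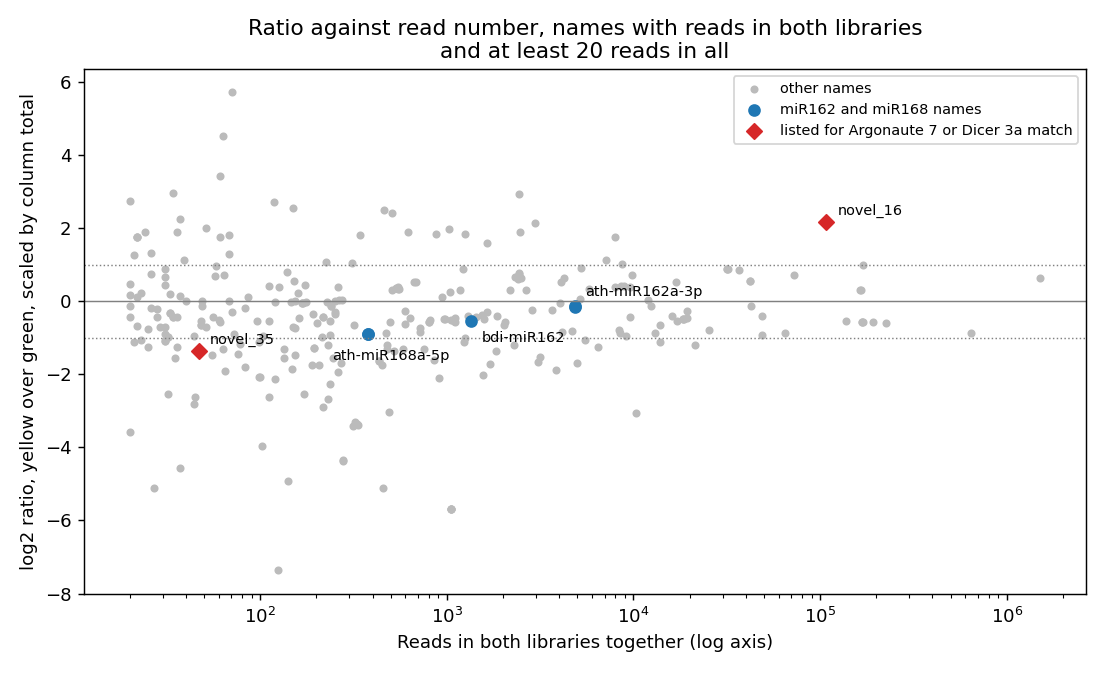
log2 ratio of yellow over green leaves, scaled by the column total, against the reads in both libraries together (log axis), for 304 names with reads in both libraries and at least 20 in all. The 2 names with 0 reads in 1 library are not drawn. Dotted lines mark a 2-fold difference. The miR162 and miR168 names lie between the dotted lines, while novel_16 lies above them and novel_35 below.

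A comparison between the families does not depend on how the libraries are scaled. miR168 stood lower relative to miR162 in yellow leaves. Taking the most-read name of each family, ath-miR162a-3p had 16.9 times the reads of ath-miR168a-5p in yellow leaves and 9.96 times in green leaves. The ratio of miR168 to miR162 in yellow over that in green was 0.590 (0.474 to 0.733), and 0.610 over the family sums. The interval of the sums, 0.523 to 0.710, takes the reads of equal-count names as distinct and so can be too narrow.

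The names of miR162 also differed among themselves. bdi-miR162 made up 10.8% of the reads summed over miR162 names in yellow leaves (10.05 to 11.65) and 13.7% in green leaves (12.8 to 14.7). With ath-miR162a-3p and zma-miR162-3p taken once, a choice made after seeing the data, the shares were 19.5% in yellow leaves (18.15 to 20.9) and 24.1% in green leaves (22.5 to 25.7). ath-miR162a-3p had 4.11 times the reads of bdi-miR162 in yellow leaves and 3.14 times in green leaves, a ratio of ratios of 0.7635 (0.675 to 0.863) for bdi-miR162 over ath-miR162a-3p. This pair was chosen after its values were seen. Between zma-miR162-3p and ath-miR162a-3p the same quantity was 0.998 (0.921 to 1.08). That interval takes the reads of both names as distinct, although they can be the same reads. miR168 was lower against bdi-miR162 too, at 0.772 (0.608 to 0.979), a pair likewise chosen after the values were seen. How far bdi-miR162 and the other miR162 names count the same reads was not tested.

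**Figure D3:**
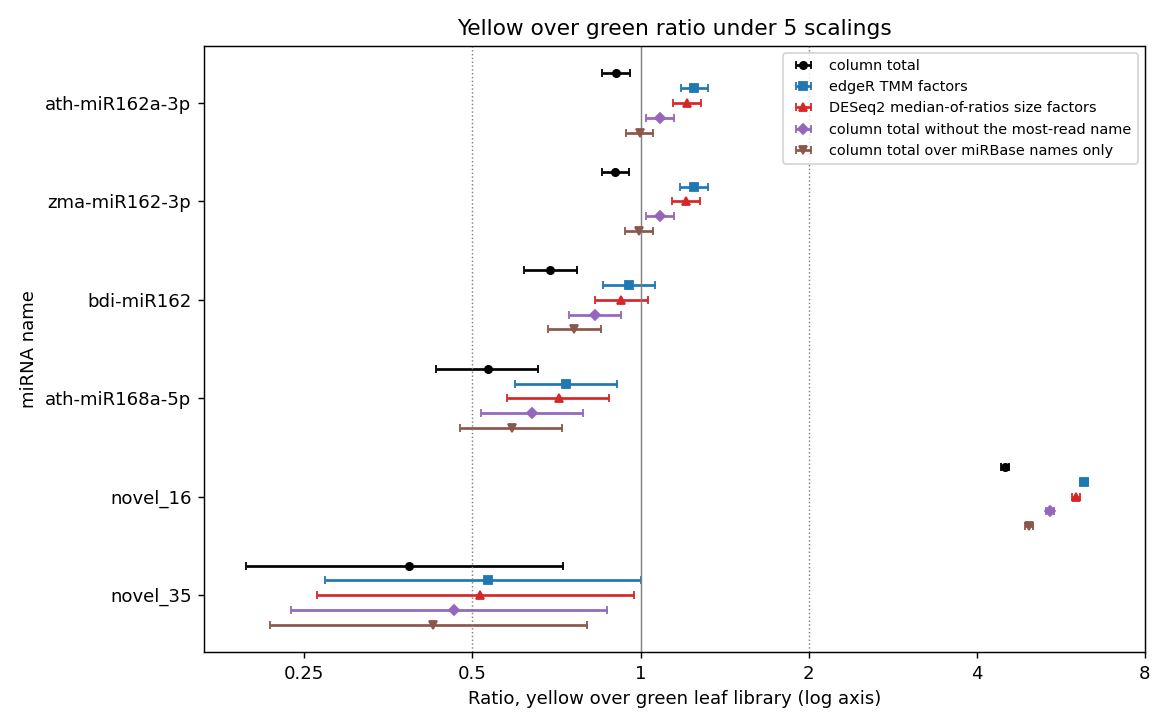
Ratio of yellow over green leaves on a log axis under 5 scalings for the miR162 names with at least 20 reads, for ath-miR168a-5p (equal in counts to gma-miR168b), and for novel_16 and novel_35. Points are ratios, bars are 95% exact intervals of counting error, the solid line marks 1 and dotted lines mark a 2-fold difference. ath-miR162a-3p crosses 1 with the scaling, while ath-miR168a-5p and bdi-miR162 have ratios below 1 and novel_16 has ratios between 4.50 and 6.22.

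The names with the pattern most like that of ath-miR162a-3p were looked up among 53 miRBase names of other families with at least 1000 reads, by the nearest log2 ratio. With 2 libraries, likeness means only a similar ratio. The nearest was cme-miR166i, a miR166 name, with 2659 reads in yellow and 2218 in green leaves and a log2 ratio 0.014 away. It also had nearly the same level as ath-miR162a-3p. The next were ptc-miR396g-5p, at a ratio of 0.913 (0.8815 to 0.946), and pta-miR1314, at 0.847 (0.7935 to 0.905).

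The authors' deposited table of predicted targets listed 16 genes for the members, 13 for miR162, 3 for miR168 and 0 for miR403. No gene was listed for more than 1 of the 3 families. A protein match was given for 10 of the 16 genes, or 62.5%, against 74.9% of the 2713 genes of the whole table. The table gives predictions only, and the level of these genes was not measured in the libraries.

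Gb_24006 was listed for all 5 miR162 names. Its match is mouse dipeptidyl peptidase 8, a serine peptidase that removes dipeptides from the ends of proteins. Gb_35990, whose match is a rice protein with a B3 DNA-binding domain, was listed for ath-miR162a-3p, zma-miR162-3p and bdi-miR162, the 3 most-read names of the family. These 2 genes were the whole list of ath-miR162a-3p. zma-miR162-3p, with nearly the same counts, was listed for 8 genes, among them both genes of ath-miR162a-3p. The shared genes were thus 2 of the 2 in the ath list and 2 of the 8 in the zma list.

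Other miR162 predictions rested on 1 or 2 names. Gb_20520, matching the Arabidopsis leucine-rich repeat receptor-like kinase PXC3, was listed for zma-miR162-3p and cln-miR162, and also for ath-miR390a-5p. Gb_29240, matching an Arabidopsis F-box protein, the kind of protein that selects others for degradation, was listed for zma-miR162-3p and osa-miR162b. Gb_27821, matching the rice calcium-signalling kinase CIPK24, was listed for zma-miR162-3p alone. Gb_02027, matching the Arabidopsis microtubule motor Kinesin-13A, was listed for bdi-miR162 and for novel_193, one of the miRNAs that the authors only numbered. Gb_36618, matching the Arabidopsis ethylene-responsive transcription factor ERF008, was listed for cln-miR162, which had 13 reads in all. The other 6 genes of miR162 had no protein match.

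For miR168, Gb_05537 was listed for both names. Its match is a carotenoid cleavage dioxygenase of crocus, an enzyme that cuts carotenoid pigments into smaller apocarotenoids. gma-miR168b was also listed for Gb_15412, matching ALE2, an Arabidopsis receptor-like kinase of epidermis formation, and for Gb_10765, matching a polyprotein of the yeast retrotransposon Ty3. Gb_10765 was shared with novel_50, which had 6 reads in yellow leaves and 26 in green leaves. Scaled by the column total, novel_50 was 5.81-fold lower in yellow leaves (2.34 to 17.25) and was called lower, beside 24.8% of the 306 names. The names ath-miR168a-5p and gma-miR168b thus had equal counts but different lists, of 1 and 3 genes.

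**Figure D4:**
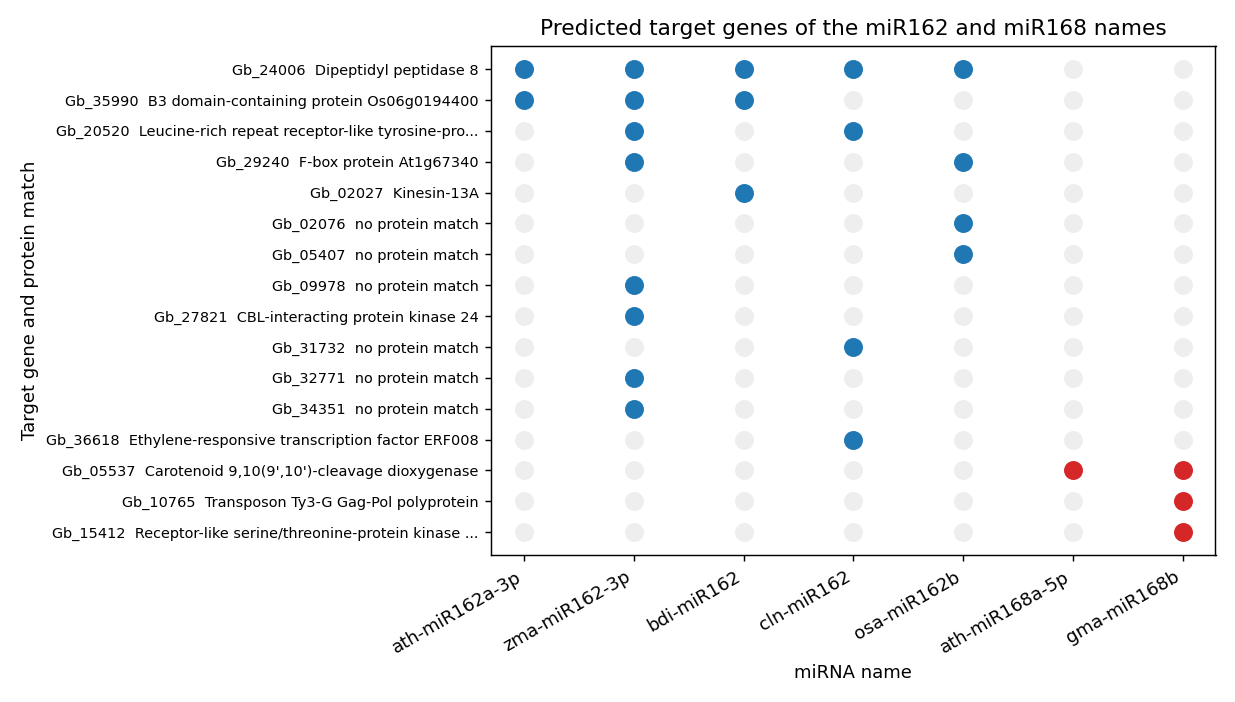
Predicted target genes (down the page, with their protein match) of the miR162 and miR168 names (across), from the authors' deposited table. A coloured dot marks a listed pair, blue for miR162 and red for miR168, and a grey dot marks a pair that is not listed. Gb_24006 is listed for all 5 miR162 names and Gb_05537 for both miR168 names, while 11 of the 16 genes are listed for 1 member name.

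Of all genes in the target table used here, 1 had an Argonaute and 1 had a Dicer as its match, and neither was listed for miR162, miR168 or miR403. Genes were found by the words of their protein match, which only 7 of the 13 genes listed for miR162 had. A missing DCL1 or AGO1 entry can therefore not be told from an unmatched gene or a missed prediction. Both were listed for a single numbered miRNA each. Gb_13708, whose match is rice Argonaute 7 (AGO7), was listed for novel_16. In Arabidopsis AGO7 carries miR390 and starts the production of trans-acting small RNAs that restrain auxin response factors. Gb_13632, whose match is the rice Dicer homolog 3a, was listed for novel_35. Enzymes of the Dicer-like 3 group make the small interfering RNAs that guide DNA methylation. The annotation ends with a number that the file does not label and that has the form of a match E-value. In the authors' deposited table it was 0 for the Argonaute match and 5.71e-09 for the Dicer match. Read as an E-value, it makes the Dicer match the weaker one. Whether Gb_13632 encodes a Dicer was not tested.

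novel_16 was abundant and higher in yellow leaves. It had 92749 reads in yellow leaves and 15379 in green leaves, or 3.32% of the column total in yellow and 0.738% in green. It ranked 7 among the 467 names in yellow leaves and 17 in green leaves. Its ratio of yellow over green was 4.50 (4.42 to 4.58), and it was called higher under each of the 5 scalings, with ratios up to 6.22 (6.12 to 6.33) by TMM. By these scalings 12.1% (column total), 14.7% (miRBase names only), 16.3% (without the most-read name), 19.6% (median of ratios) and 20.9% (TMM) of the 306 names were higher. Of the 306 names with at least 20 reads, 13 had a higher ratio, and none of the 39 names with at least 10000 reads had one. Relative to ath-miR162a-3p, novel_16 was 4.98 times as high in yellow as in green leaves (4.69 to 5.29), and relative to ath-miR168a-5p 8.45 times (6.85 to 10.45), comparisons chosen after the values were seen. The deposited table lists only 1 further gene for novel_16, Gb_16854, whose match is a subunit of ribonuclease H2 from the frog Xenopus laevis, and no other miRNA for either gene.

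novel_35 was rare, with 16 reads in yellow leaves and 31 in green leaves. Scaled by the column total it was 2.60-fold lower in yellow leaves (1.38 to 5.08) and was called lower. With TMM its ratio was 0.5325 (0.272 to 1.004) and with median of ratios 0.516 (0.264 to 0.973), and under neither was it called. Lower were 24.8% of the 306 names by the column total, 23.2% over miRBase names only, 20.9% without the most-read name, 17.6% by median of ratios and 16.3% by TMM. A minimum of 50 reads leaves novel_35 out, and 27.2% of the 246 names that reach it were lower. Relative to ath-miR162a-3p it stood at 0.4265 (0.217 to 0.806) in yellow over green leaves. Relative to ath-miR168a-5p the same quantity was 0.724 (0.357 to 1.42), so at this depth its difference from the miR168 names was not resolved. Both pairs were chosen after the values were seen. It was listed for 8 genes in all, 6 of them with a protein match.

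Of the 2 names listed for Argonaute or Dicer genes, 1 was thus higher and 1 lower when scaled by the column total, beside 12.1% and 24.8% of the 306 names.

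Other genes of the small RNA pathway were looked up by keywords of their match. 5 genes were found, none of them listed for miR162, miR168 or miR403, and 6 miRNAs were listed for them. Only 1 of the 6 reached the 20 reads needed for a call, and it was not called, beside 12.1% of the 306 names called higher and 24.8% called lower. Gb_11234 matches HEN1, the Arabidopsis methyltransferase that protects the ends of plant small RNAs, and was listed for mtr-miR5559-5p, which had 0 reads in yellow leaves and 1 in green leaves. Gb_39644 matches the rice double-stranded RNA-binding protein DRB2, with 4.65e-07 as the unlabelled number of its annotation. It was listed for ath-miR5658, which had 0 reads in yellow leaves and 2 in green leaves. ath-miR5658 was listed for 138 genes, the most of any name, where the median over names was 7. For a count of 0 the exact interval reaches up to 1.32 CPM in yellow leaves and 1.77 CPM in green leaves. Gb_21425 matches the large subunit of Arabidopsis RNA polymerase V, which transcribes the scaffolds of RNA-directed DNA methylation. It was listed for novel_172, with 5 reads in yellow and 8 in green leaves, and for ghr-miR169b, with 1 read in yellow and 0 in green leaves.

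The other 2 genes match nuclear export receptors that carry proteins and are not specific to small RNAs. Gb_02785 matches Exportin 1A and was listed for novel_244, with 9 reads in yellow and 8 in green leaves and 109 listed genes in all. Gb_41323 matches Exportin-2 and was listed for novel_326, with 14 reads in yellow and 12 in green leaves and a ratio of 0.871 (0.374 to 2.06). Of these miRNAs only novel_326 reached 20 reads over both libraries, so the rest could not be called. Their ratio intervals, scaled by the column total, all included 1, so no difference between the leaf types was resolved at this depth.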

How the data were processed

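Small RNA reads were counted by the authors in 2 leaf libraries, and the deposited count table holds raw read counts per miRNA name, per the file headers. The submitters' processing notes name Bowtie without a version. Not given in the sources used here are the counting rule, the genome build, the release of miRBase and the predictors of miRNAs and targets. The members, lists and rules were chosen with earlier results of these data known.

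Counts were divided by the column total to give CPM. CPM intervals are exact Poisson intervals, ratio intervals are exact (Clopper-Pearson) intervals of the yellow share, and a ratio of ratios is the conditional odds ratio with its exact conditional interval (scipy 1.17.1), all at 95%. They cover counting error only, since each leaf type had 1 library. They take the reads as independent, which reads that lack molecular identifiers need not be, so they can be too narrow. The calculation was tested on simulated counts with known ratios, drawn independently for each name with Poisson error. That check covers the arithmetic only, since reads shared between names and variation between libraries were not simulated. Named were all members with their predicted targets, all Argonaute, Dicer and keyword matches with the miRNAs listed for them, and the 3 nearest names by log2 ratio. The alternatives tried were TMM factors (edgeR 4.0.16), median-of-ratios size factors (DESeq2 1.42.0), totals without the most-read name or over miRBase names only, read minimums of 5 and 50, a 1.5-fold limit, and family sums with equal counts once or by the most-read name. Taking ath-miR162a-3p and zma-miR162-3p once was added after seeing the data.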

Additional observations from a re-analysis of the deposited data

How the results depend on the processing

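The summed ratio of miR162 over its 5 names was 0.873 by the column total, 0.963 by the total over miRBase names only, 1.05 without the most-read name, 1.17 by median of ratios and 1.21 by TMM, so its direction depended on the scaling. With ath-miR162a-3p and zma-miR162-3p taken once, chosen after seeing the data, it was 0.852 by the column total. That of miR168 was 0.5325 by the column total, 0.640 without the most-read name, 0.714 by median of ratios and 0.736 by TMM, and stayed below 1. The ratios of single names moved outside their interval in 15 of 32 cases over the 4 other scalings, by the factor common to all names, and none of the names was called under any of them. Of the 306 names, 14.7% (miRBase names only), 16.3% (without the most-read name), 19.6% (median of ratios) and 20.9% (TMM) were called higher, and 23.2%, 20.9%, 17.6% and 16.3% in the same order were called lower. With a 1.5-fold limit 2 member names, both of miR168, were lower, beside 34.3% of the 306 names. Of the names listed for Argonaute or Dicer genes, 0 were lower with TMM (16.3% of all names), with median of ratios (17.6%) and with a minimum of 50 reads (27.2% of 246 names), which novel_35 with 47 reads does not reach. The count of 1 higher name, novel_16, was the same under the 4 other scalings, beside the shares called higher above. No paired analysis was possible because each leaf type has 1 library. Depth limits cln-miR162, osa-miR162b and miR403, and with 1 library per leaf type no difference has a replicate check.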
